A study of Mus musculus with 14 samples.

Results

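Apolipoprotein genes encode the proteins that coat, solubilize and direct plasma lipoprotein particles. The 10 members described here, Apoa1, Apoa2, Apoa4, Apoa5, Apob, Apoc1, Apoc2, Apoc3, Apoe and Apoh, were chosen by symbol as the rows of the deposited count table that carry these names. They are 10 of the 25212 genes listed, each has 1 row, and all 10 passed the filter on low counts that left 14252 genes for testing. The livers came from male C57BL/6 mice that received a high-fat diet (HFD) from 6 weeks of age, for 12 weeks before allocation to a group. The paper states that the mice stayed on this diet after surgery until the final measurements. The groups were 5 diet-induced obese mice without surgery (DIO), 4 mice whose gallbladder was joined to the ileum with the common bile duct tied off (GB-IL), and 5 that underwent Roux-en-Y gastric bypass (RYGB). All livers are labelled 8 weeks. The DIO mice had no operation, so these data hold no sham control, and a surgical effect and a diversion effect cannot be told apart. Each liver gave 1 library, and p-values therefore measure the spread between single livers.

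The liver secretes triglyceride as very-low-density lipoprotein (VLDL), which is built around a single molecule of the Apob product, and it releases the Apoa1 product, around which high-density lipoprotein (HDL) forms. The small exchangeable apolipoproteins move between these particles and set how fast lipoprotein lipase clears triglyceride: the Apoc2 product activates the enzyme, the Apoc3 product restrains clearance, and the Apoa5 product promotes it. The Apoe product is the ligand by which remnant particles are taken up by the liver.

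In GENCODE M21 on GRCm38 (mm10), 7 of the 10 genes lie in 2 clusters. Apoa1 (chr9:46228580-46230466), Apoc3 (chr9:46232933-46235636), Apoa4 (chr9:46240696-46243459) and Apoa5 (chr9:46268633-46271919) lie within 43340 bases of chromosome 9, with Apoc3 on the minus strand and the other 3 on the plus strand. On chromosome 7, Apoc2 (chr7:19671579-19677941), Apoc1 (chr7:19689481-19692660) and Apoe (chr7:19696109-19699188) lie within 27610 bases on the minus strand. The single genes are Apoa2 (chr1:171225054-171226379), Apob (chr12:7977648-8016835) and Apoh (chr11:108343354-108414396), all 3 on the plus strand. Exons of Apoc2 share 646 bases, 79.5% of its exon length, with the model Gm44805 on the same strand, which the count table does not list. On the opposite strand, Gm10680 shares 632 exon bases with Apoa4 (34.8% of its exon length), Gm47528 shares 634 with it, Gm47544 shares 524 with Apoa5 (20.8%) and Prkca shares 30 with Apoh (1.9%). The strand setting of the counting is not stated, so reads of these overlapping models cannot be told apart from those of Apoa4, Apoa5 and Apoh. A counter can also drop reads in shared exons as ambiguous, and the counts of Apoc2 are uncertain for the shared exons.

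Of the 10 members, 8 had a window around the start site in the RefSeq promoter table. The sequences before the starts of Apoa1, Apoa5 and Apob are shown because these 3 genes carried the differences that passed the threshold in at least 1 alternative described below and have a window. All 3 are on the plus strand of GRCm38.p6 and end at the base before the annotated gene, and capitals mark matches to a searched motif.
Apoa1, chr9:46228380-46228579: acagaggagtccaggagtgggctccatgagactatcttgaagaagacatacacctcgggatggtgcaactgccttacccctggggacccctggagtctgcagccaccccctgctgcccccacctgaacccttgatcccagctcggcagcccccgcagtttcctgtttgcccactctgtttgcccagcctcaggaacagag
Apoa5, chr9:46268383-46268632: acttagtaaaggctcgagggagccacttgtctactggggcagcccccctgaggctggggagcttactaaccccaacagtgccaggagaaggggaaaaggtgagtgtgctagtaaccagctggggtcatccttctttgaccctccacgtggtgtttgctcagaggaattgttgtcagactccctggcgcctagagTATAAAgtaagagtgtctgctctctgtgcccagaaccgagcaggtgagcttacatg
Apob, chr12:7977427-7977647: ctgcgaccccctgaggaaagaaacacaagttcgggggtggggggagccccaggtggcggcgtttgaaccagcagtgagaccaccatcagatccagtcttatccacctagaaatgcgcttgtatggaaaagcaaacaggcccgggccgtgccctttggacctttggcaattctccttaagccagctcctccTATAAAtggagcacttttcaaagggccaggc

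The windows of 250 bases before to 50 after the start site were searched on both strands for short motifs. Of the 32851 windows in the table, 0.475% held CAAAGTCCA, and CAAAGGTCA was found in 0.478%. The motif TTGCGCAA was found in 0.183% of windows, the motif AGGTCA, which is also part of the second, in 16.3%, and the motif TATAAA in 13.6%. Among the members TATAAA was found in Apoa5, 56 bases before the RefSeq start site, in Apob, 60 bases before it, and in Apoa2, 212 bases before it. AGGTCA was found in Apoc2 and Apoh, and the 3 longer motifs in none of the 8 windows. A match is a description of letters and not a bound site.

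Libraries held 18223135 to 28656631 counts (median 20310775), and 2629 to 504569 counts fell on a member in a single liver. Some livers stood apart. The library labelled GB-IL liver 4 was closer to the DIO livers than to its own group. Its log2 CPM over the tested genes correlated with the 5 DIO livers at r = 0.974 to 0.988, and with GB-IL livers 1, 2 and 3 at 0.848, 0.878 and 0.951, and with the RYGB livers at 0.951 to 0.982, a description over genes that share these libraries. The DIO livers correlated with each other at 0.971 to 0.993. GB-IL liver 3 also correlated more with the DIO livers, at 0.946 to 0.958, than with GB-IL livers 1 and 2, at 0.888 and 0.928. With GB-IL liver 4 it correlated at 0.951 and with the RYGB livers at 0.948 to 0.963, so GB-IL livers 1 to 3 were not a tight group. Whether the label of GB-IL liver 4 is right was not tested, and the members' GB-IL results are therefore also given without it. GB-IL liver 4 had a summed level of 6 cholangiocyte markers of 60.4 counts-per-million of the total (CPM), against 205.9 to 299.6 CPM in GB-IL livers 1 to 3 and 32.2 to 64.7 CPM in DIO. Other lists differed. Its macrophage and Kupffer cell sum, 834 CPM, lay above the DIO range of 376 to 671 CPM. Its stellate cell and fibroblast sum, 355 CPM, lay above the DIO range of 201 to 326 CPM. Its neutrophil and B cell sum, 7.54 CPM, and its sinusoidal endothelium sum, 207 CPM, lay within the DIO ranges. GB-IL liver 1 held 1260 CPM of 6 pancreatic acinar genes, against 0.0383 to 2.39 CPM in the other livers. RYGB liver 5 correlated with RYGB livers 1 to 4 at r = 0.957 to 0.962, and these with each other at 0.969 to 0.992. The slope of expression on GC content, in log2 units per 10 points, was 0.385, 0.337 and 0.0414 in GB-IL livers 1 to 3 and -0.292 in GB-IL liver 4, and ranged from -0.205 to 0.109 in DIO and from -0.264 to 0.0755 in RYGB. The 12 hepatocyte markers summed to 132000 to 188300 CPM, and none of them stayed under 1 CPM in every liver. Since whole tissue was sequenced, fewer cells of a type and less RNA per cell cannot be told apart.

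Together the 10 genes held 4.95% ± 0.84 of all counts in DIO (SD, n = 5), 4.47% ± 0.50 in GB-IL (SD, n = 4) and 4.24% ± 0.65 in RYGB (SD, n = 5). The ranges were 3.74% to 5.99%, 4.07% to 5.17% and 3.61% to 5.29%, so the 3 groups overlapped.

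Levels of different genes were compared as CPM, scaled by the trimmed mean of M-values (TMM), per kilobase of exon. In DIO the order of the mean levels was Apoa2, Apoe, Apoa1, Apoc1, Apoc3, Apoh, Apoa5, Apoc2, Apob and Apoa4. The places of Apoa4, Apoa5, Apoc2 and Apoh carry the limit of shared exons given above, since dropped reads would lower a level per kilobase. Apoa2, the second protein of HDL, stood at 16140 ± 4170 CPM per kilobase (SD, n = 5), and Apoe at 8743 ± 2260 (SD, n = 5). Neighbours in this order overlapped over the 5 livers except at 2 steps, from Apoc1 (lowest liver 3968) to Apoc3 (highest liver 2271) and from Apoh (lowest 1108) to Apoa5 (highest 778). Apob was the ninth per kilobase, at 294 ± 41.0 (SD, n = 5), with an exon length of 13934 bases against 537 for Apoa2.

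In GB-IL the first places were Apoa2 at 11170 ± 2410 and Apoa1 at 10900 ± 4180 CPM per kilobase (SD, n = 4 each), and Apoa1 exceeded Apoa2 in 3 of 4 livers. In RYGB they were Apoa2 at 10690 ± 4070 and Apoa1 at 7418 ± 1610 (SD, n = 5 each), and Apoa2 exceeded Apoa1 in 5 of 5 livers. The neighbours overlapped in both cases. With the length of the principal coding transcript instead of all exons, the order in DIO did not change, whereas Apoa1 and Apoa2 exchanged places in GB-IL, and Apoa1 and Apoe in RYGB.

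**Figure D1:**
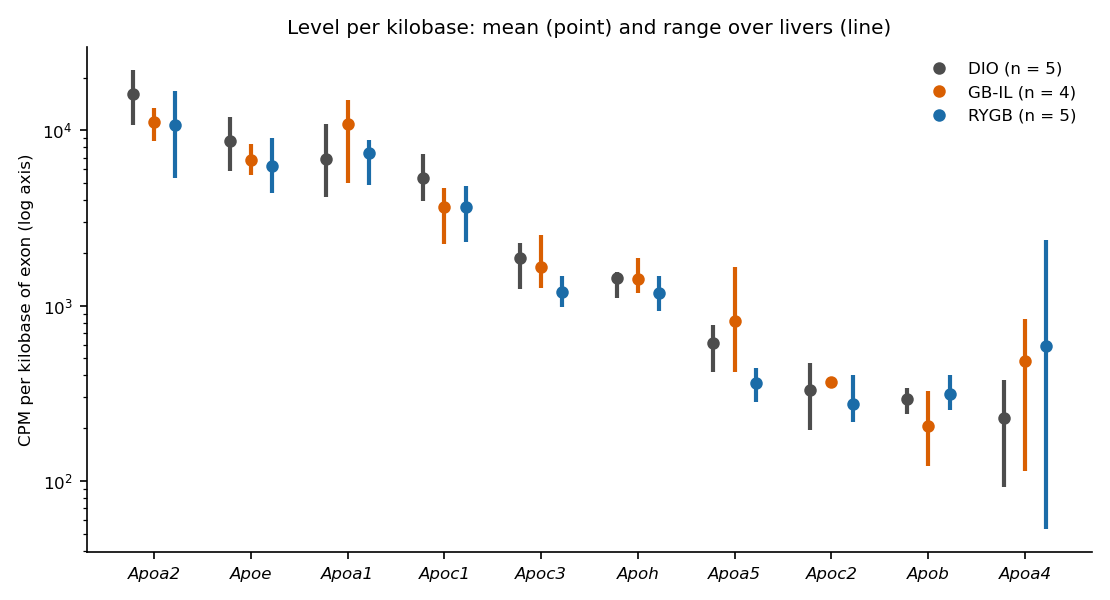
Level of each apolipoprotein gene in CPM per kilobase of exon (log axis), with the mean (point) and the range over the livers of a group (line) for DIO, GB-IL and RYGB. The genes are in the order of the DIO means, from 16140 for Apoa2 to 228 for Apoa4, and the longest line is Apoa4 in RYGB, from 52.8 to 2374.

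No member passed the false discovery rate (FDR) of 0.05 in any of the 3 comparisons by edgeR's quasi-likelihood test over 14252 genes. For GB-IL against DIO, 0 of 10 passed, where 3.26% of all genes tested did (3.15% higher and 0.112% lower in GB-IL), and 0 of 10 had an unadjusted p below 0.05, against 23.1% of all genes. For RYGB against DIO, 0 of 10 passed the FDR and 0% of all genes did, and 2 of 10 (Apoa5 and Apoc3) had an unadjusted p below 0.05, against 8.71%. For GB-IL against RYGB, 0 of 10 passed, again with 0% of all genes, and 1 of 10 (Apoa5) had an unadjusted p below 0.05, against 22.1%. In none of the 10 genes were 2 groups free of overlap. Over all genes tested the share without overlap was 4.17%, 3.53% and 2.84% in the 3 comparisons, in the same order.

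The direction of the estimates was mixed in GB-IL against DIO, with 4 members higher and 6 lower and a median log2 fold change of -0.10, beside 0.04 over all genes. In RYGB against DIO 3 were higher and 7 lower (median -0.38, beside 0.01). In GB-IL against RYGB 7 were higher and 3 lower (median 0.19, beside 0.03). The 3 comparisons share livers, the first 2 the same DIO controls, so they are not independent. The 95% interval of a member's log2 fold change reached a median of 0.61 to either side in GB-IL against DIO, 0.57 in RYGB against DIO and 0.61 in GB-IL against RYGB, and the widest reached 2.07, for Apoa4. These intervals are not adjusted over genes, so differences of that size and larger could be missed with these numbers of livers. Apoa5, at 1.18 in GB-IL against RYGB, did not pass the FDR (adjusted p = 0.111 by edgeR's test).

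**Figure D2:**
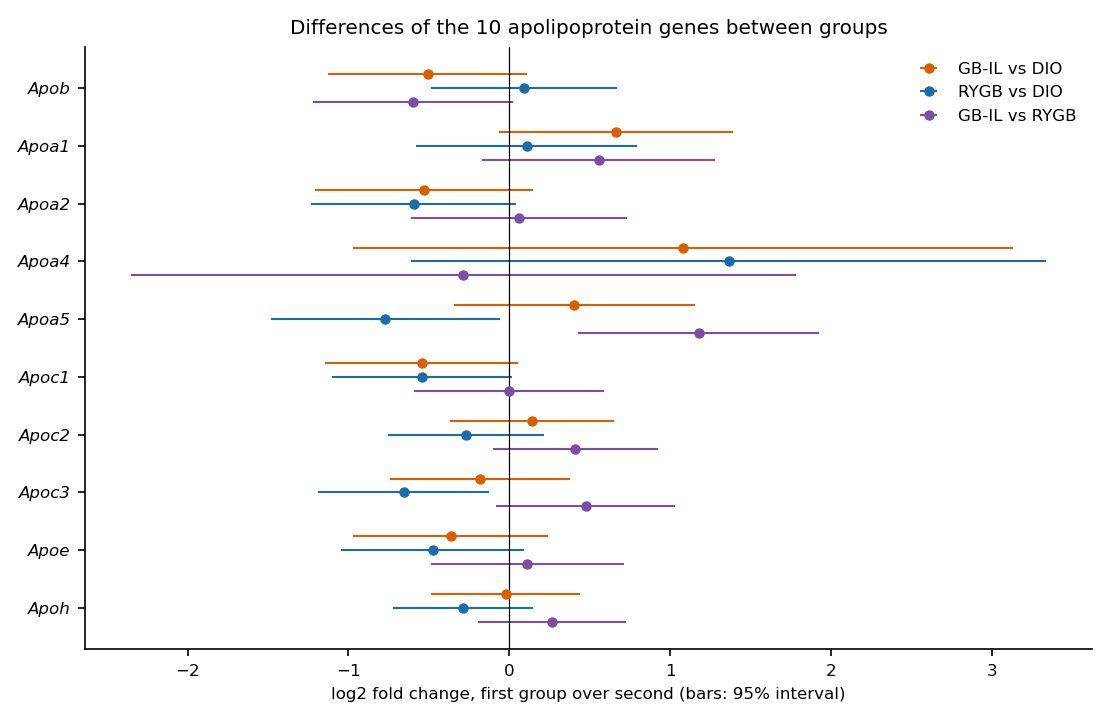
Log2 fold change of each apolipoprotein gene (points) with its 95% interval (bars) from edgeR's quasi-likelihood fit, for GB-IL against DIO, RYGB against DIO and GB-IL against RYGB. The intervals that leave out 0 are those of Apoa5 in RYGB against DIO and in GB-IL against RYGB and of Apoc3 in RYGB against DIO, and none of these passed the FDR.

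Apob encodes the structural protein of VLDL and LDL. It was measured at 4737, 4540, 3709, 3358 and 4158 CPM in DIO livers 1 to 5, and at 2010, 1695, 3279 and 4551 CPM in GB-IL livers 1 to 4. In RYGB livers 1 to 5 it was 3726, 4150, 5603, 4774 and 3559 CPM. GB-IL livers 1, 2 and 3 lay below every DIO and every RYGB liver, and GB-IL liver 4 lay among them. The log2 fold change was -0.51 ± 0.29 (SE) in GB-IL against DIO (adjusted p = 0.293) and -0.60 ± 0.29 in GB-IL against RYGB (adjusted p = 0.241), and RYGB and DIO differed by 0.09 ± 0.27 (adjusted p = 0.943).

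GB-IL liver 4 decided the call. Without it, Apob was 0.82 lower than DIO on the log2 scale (-0.82, adjusted p = 0.036) and 0.91 lower than RYGB (-0.91, adjusted p = 0.0284). Leaving that liver out also raised the share of all genes called to 24.6% in GB-IL against DIO and 21.5% in GB-IL against RYGB, of 14492 genes, and 2 of 10 members passed in each of these comparisons (Apoa1 and Apob in the first, Apoa5 and Apob in the second). With any other liver left out, the adjusted p of Apob in GB-IL against DIO was above 0.05. Without any single DIO liver, or without GB-IL liver 1 or 2, 0 of all genes were called. Those fits therefore do not bear on Apob in particular. The other 8 members without GB-IL liver 4 lay between -0.70 for Apoc1 (adjusted p = 0.0907) and 1.23 for Apoa4 (adjusted p = 0.394) against DIO. Against RYGB the 8 members not called lay between -0.15 for Apoc1 (adjusted p = 0.715) and 0.785 for Apoa1 (adjusted p = 0.0683). The members' calls without this liver stand beside calls in a large share of all genes, and the liver was singled out after its values were seen. Apob has the lowest exon GC content of the 10 genes, 43.6%, and after correction of each liver for exon length and GC content its difference was -0.44 (adjusted p = 0.199) from DIO and -0.37 (adjusted p = 0.307) from RYGB.

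Apoa1, which encodes the main protein of HDL, was the member with the opposite pattern. It stood at 8008, 5184, 7672, 13477 and 8188 CPM in DIO livers 1 to 5, and at 15072, 18420, 14177 and 6232 CPM in GB-IL livers 1 to 4. In RYGB livers 1 to 5 it was 10949, 10599, 8545, 9719 and 6030 CPM. GB-IL livers 1, 2 and 3 lay above every other liver, and GB-IL liver 4 was the third lowest of the 14. The log2 fold change was 0.66 ± 0.34 (SE) in GB-IL against DIO (adjusted p = 0.251), 0.56 ± 0.34 in GB-IL against RYGB (adjusted p = 0.333) and 0.11 ± 0.32 in RYGB against DIO (adjusted p = 0.942). Without GB-IL liver 4 the first became 0.89 (adjusted p = 0.0402) and the second 0.79 (adjusted p = 0.0683). With all 14 livers, the correction for exon length and GC content (56.8% GC for Apoa1) took the first from 0.66 to 0.43 (adjusted p = 0.303). It took the second from 0.56 to 0.20 (adjusted p = 0.661).

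Within a liver, the ratio of counts of Apoa1 to Apob does not depend on the scaling of the library. This ratio was picked after the values had been seen and is given as a description. It was 1.69, 1.14, 2.07, 4.01 and 1.97 in DIO livers 1 to 5, 7.50, 10.9, 4.32 and 1.37 in GB-IL livers 1 to 4, and 2.94, 2.55, 1.53, 2.04 and 1.69 in RYGB livers 1 to 5. GB-IL livers 1 to 3 had the 3 highest ratios of the 14 livers, and GB-IL liver 4 the second lowest. Of all 45 pairs of members, Apoa1 and Apob were the only one with a negative correlation of log2 CPM over the 14 livers that passed adjustment over the pairs. Pearson's r was -0.72 (permutation test, p = 0.00232, adjusted p = 0.0156), a value as low as which 6.65% of all gene pairs with means of at least 10 CPM had, and Spearman's rho was -0.582 (permutation p = 0.0313, adjusted p = 0.0984). The r was -0.593 without the 2 livers farthest from the median of Apoa1 and -0.635 with group means removed, and these livers also differ in their slope on GC content, whose part was not tested.

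Apoa2 is the second most abundant protein of HDL. It was measured at 9386, 5738, 11886, 8371 and 7944 CPM in DIO livers 1 to 5, at 4673, 7055, 5096 and 7163 CPM in GB-IL livers 1 to 4 and at 9015, 5676, 5799, 5332 and 2872 CPM in RYGB livers 1 to 5. The 2 highest livers were DIO livers 3 and 1, and DIO livers 2, 4 and 5 lay among the operated mice. The differences were -0.53 ± 0.32 (SE, adjusted p = 0.313) for GB-IL and -0.59 ± 0.30 (adjusted p = 0.594) for RYGB against DIO, and 0.06 ± 0.32 (adjusted p = 0.914) between GB-IL and RYGB.

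The log2 ratio of Apoa2 to Apoa1 counts was 0.06 ± 0.48 in DIO (SD, n = 5), -1.09 ± 0.87 in GB-IL (SD, n = 4) and -0.74 ± 0.31 in RYGB (SD, n = 5). As a ratio of counts it lay between 0.621 and 1.55 in DIO, between 0.310 and 0.383 in GB-IL livers 1 to 3 and between 0.476 and 0.823 in RYGB, with 1.15 in GB-IL liver 4. Of the GB-IL and RYGB livers, 3 of 4 and 3 of 5 lay below every DIO liver. In DIO liver 4, the lowest of its group, Apoa1 was the highest of the 5 and Apoa2 the third.

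**Figure D3:**
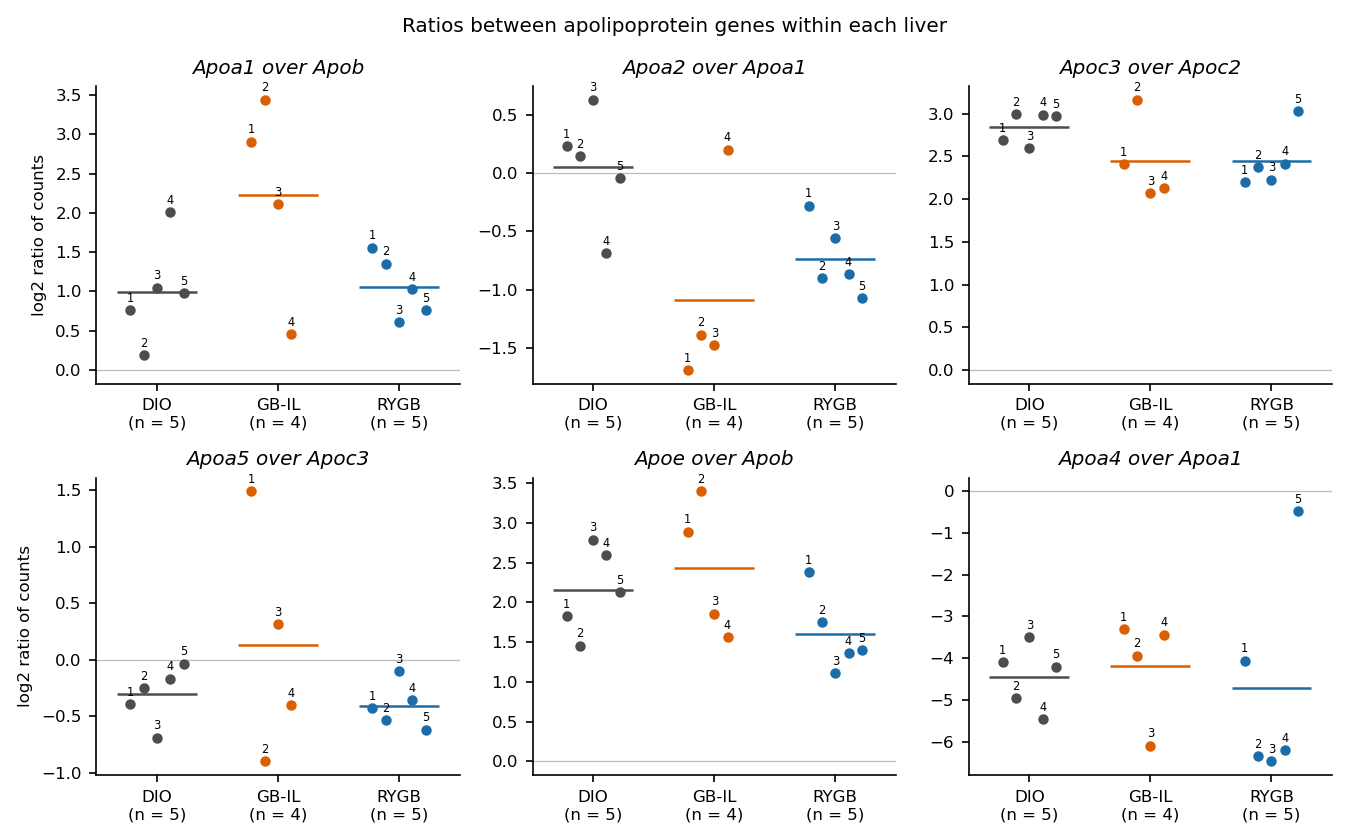
Log2 ratio of the counts of 2 apolipoprotein genes in each liver (numbered points) with the group mean (line), for 6 ratios. GB-IL livers 1 to 3 stand apart from GB-IL liver 4 in Apoa1 over Apob and Apoa2 over Apoa1, and RYGB liver 5 stands at -0.48 in Apoa4 over Apoa1, above the other 13 livers.

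Apoa5, which encodes a plasma protein that promotes lipolysis by lipoprotein lipase and lowers triglyceride, gave the smallest p-value of the members. It was measured at 1397, 1057, 1427, 1902 and 1962 CPM in DIO livers 1 to 5 and at 1118, 715, 932, 829 and 941 CPM in RYGB livers 1 to 5. In GB-IL livers 1 to 4 it was 4179, 1377, 1594 and 1059 CPM. Of the RYGB livers, 4 of 5 lay below every DIO liver, with RYGB liver 1 just above DIO liver 2, and 3 of 4 GB-IL livers lay above every RYGB liver. The log2 fold change was -0.77 ± 0.33 (SE) in RYGB against DIO (95% interval -1.48 to -0.06, adjusted p = 0.547), 1.18 ± 0.35 in GB-IL against RYGB (0.43 to 1.93, adjusted p = 0.111) and 0.41 ± 0.35 in GB-IL against DIO (adjusted p = 0.469).

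The call for Apoa5 depended on the method. Limma's voom with sample quality weights, which weights a liver by its spread, gave -1.0 (adjusted p = 0.00665) in RYGB against DIO, in a comparison where it called 11.9% of all genes. DESeq2 gave 1.19 (adjusted p = 0.0229) in GB-IL against RYGB, where it called 5.93% of all genes, and Apoa5 was the only member it called there. Without GB-IL liver 4 that difference was 1.38 in edgeR's test (adjusted p = 0.014), and without GB-IL liver 1 it was 0.557 (adjusted p = 0.294). GB-IL liver 1, with a count of 79669 for Apoa5, carried the higher mean of GB-IL: without it the log2 fold change of GB-IL against DIO was also lower, at -0.22 (adjusted p = 0.692). GB-IL liver 1 is also the liver with 1260 CPM of pancreatic acinar genes, and the part of this in the value was not tested.

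Apoc3, the inhibitor of triglyceride clearance next to Apoa1 on chromosome 9, was measured at 1838, 1257, 2303, 2134 and 2008 CPM in DIO livers 1 to 5. In RYGB livers 1 to 5 it was 1506, 1036, 999, 1062 and 1447 CPM, and in GB-IL livers 1 to 4 it was 1483, 2571, 1282 and 1397 CPM. RYGB livers 2, 3 and 4 lay below every DIO liver, and RYGB livers 1 and 5 above only DIO liver 2. The difference was -0.66 ± 0.25 (SE) in RYGB against DIO (95% interval -1.19 to -0.13, adjusted p = 0.507), -0.18 ± 0.26 in GB-IL against DIO (adjusted p = 0.678) and 0.48 ± 0.26 in GB-IL against RYGB (adjusted p = 0.289). With voom and sample quality weights the difference in RYGB was -0.84 (adjusted p = 0.00741), so that 2 of 10 members, Apoa5 and Apoc3, were called beside the 11.9% of all genes.

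Apoc2 encodes the activator of lipoprotein lipase. Its level was 270 ± 79.4 CPM in DIO (SD, n = 5), 297 ± 18.3 CPM in GB-IL (SD, n = 4) and 223 ± 59.6 CPM in RYGB (SD, n = 5). The GB-IL livers, at 278 to 319 CPM, fell within the DIO range of 158 to 380 CPM, and their highest exceeded their lowest by 1.15-fold, the narrowest spread of any member in any group. The differences were 0.14 ± 0.24 (SE, adjusted p = 0.727) in GB-IL and -0.27 ± 0.23 (adjusted p = 0.768) in RYGB against DIO.

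The counts of Apoc3 exceeded those of Apoc2 in all 14 livers. The ratio lay between 6.05 and 7.97 in DIO, at 5.33, 8.97, 4.20 and 4.38 in GB-IL livers 1 to 4, and at 4.60, 5.19, 4.68, 5.33 and 8.16 in RYGB livers 1 to 5. Thus 3 of 4 GB-IL livers and 4 of 5 RYGB livers lay below every DIO liver, whereas GB-IL liver 2 and RYGB liver 5 lay above all of them. The ratio of Apoa5 to Apoc3, which encode proteins of opposite action on triglyceride clearance, was 0.620 to 0.977 in DIO and 0.651 to 0.933 in RYGB, so the RYGB livers stayed inside the DIO range of the ratio while their means of both genes were below those of DIO. In GB-IL livers 1 to 4 it was 2.82, 0.536, 1.24 and 0.758, a wider range than in DIO at both ends.

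Apoc1 encodes a small protein that inhibits lipoprotein uptake and lipase. It was measured at 3965 ± 906 CPM in DIO (SD, n = 5), 2718 ± 786 CPM in GB-IL (SD, n = 4) and 2720 ± 681 CPM in RYGB (SD, n = 5). The lowest livers were GB-IL liver 1 at 1665 CPM and RYGB liver 5 at 1713 CPM, and DIO liver 3 was highest at 5423 CPM. The log2 fold changes from DIO were both -0.54, with adjusted p = 0.253 for GB-IL and 0.582 for RYGB, and 2 of 4 GB-IL and 4 of 5 RYGB livers lay below every DIO liver.

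Apoe encodes the ligand for remnant uptake. It was the member with the most counts in 11 of 14 livers, and in the other 3, GB-IL livers 1 to 3, that place went to Apoa1. It stood at 18692 ± 4826 CPM in DIO (SD, n = 5), 14529 ± 2552 CPM in GB-IL (SD, n = 4) and 13435 ± 3718 CPM in RYGB (SD, n = 5). Differences were -0.36 ± 0.28 (SE, adjusted p = 0.425) for GB-IL and -0.48 ± 0.27 (adjusted p = 0.641) for RYGB against DIO, and the groups overlapped. Apoh, which encodes beta-2-glycoprotein I, a phospholipid-binding plasma protein, had the smallest standard errors of the members. Its level was 2299 ± 300.1 CPM in DIO (SD, n = 5), 2265 ± 508 CPM in GB-IL (SD, n = 4) and 1884 ± 307 CPM in RYGB (SD, n = 5), with differences of -0.02 ± 0.22 (SE, adjusted p = 0.959) and -0.29 ± 0.21 (adjusted p = 0.72) from DIO.

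Apoa4 was the most variable member. Its product is an apolipoprotein of chylomicrons and HDL, made mainly by the intestine and, in mice, also by the liver. It was measured at 468, 167, 679, 307 and 443 CPM in DIO livers 1 to 5 and at 1514, 1199, 207 and 574 CPM in GB-IL livers 1 to 4. In RYGB livers 1 to 5 it was 655, 129, 95.9, 131 and 4310 CPM, so the highest RYGB liver exceeded the lowest 44.9-fold. RYGB livers 2, 3 and 4 lay below every DIO liver and RYGB liver 5 above every other liver of the study. The log2 fold change from DIO was 1.37 ± 0.93 (SE) in RYGB (adjusted p = 0.706), and without RYGB liver 5 it was -0.71 (adjusted p = 0.999). In GB-IL against DIO it was 1.08 ± 0.96 (adjusted p = 0.482), where GB-IL livers 1 and 2 exceeded the DIO range.

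Genes of an enterocyte list were also read in these livers, and whether intestinal tissue was present was not tested. Of the 10 listed genes, 6 (Vil1, Alpi, Sis, Lct, Mep1a and Cdh17) stayed under 1 CPM in every liver, and none was at 0 in all livers. Fabp2 made up nearly all of the rest, with at most 209 CPM, in GB-IL liver 4. In RYGB liver 5, with the highest Apoa4, the 10 genes summed to 61.0 CPM, within the RYGB range of 59.2 to 102 CPM. As Fabp2 makes up most of this sum, it does not show the other genes. Muc2 had its highest level, 3.75 CPM, in RYGB liver 5. Slc5a1 and Reg3g had theirs, 2.4 and 1.27 CPM, in GB-IL liver 1, which had the second highest Apoa4. RYGB liver 5 held the most of 6 erythroid genes in its group, 2052 CPM against a RYGB median of 191 CPM, but sums of 247 to 2432 CPM in DIO and 164 to 1768 CPM in GB-IL include values as high. It also held 78.7 CPM of 6 neutrophil and B cell genes, against a RYGB median of 11.1 CPM, 4.61 to 18.3 CPM in DIO and 7.54 to 243 CPM in GB-IL. Its 6 sinusoidal endothelium genes summed to 539 CPM, against a RYGB median of 238 CPM, 169 to 228 CPM in DIO and 158 to 208 CPM in GB-IL. Its hepatocyte sum, 188300 CPM, was the highest of the 14 livers. The part of these in its Apoa4 level was not tested.

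**Figure D4:**
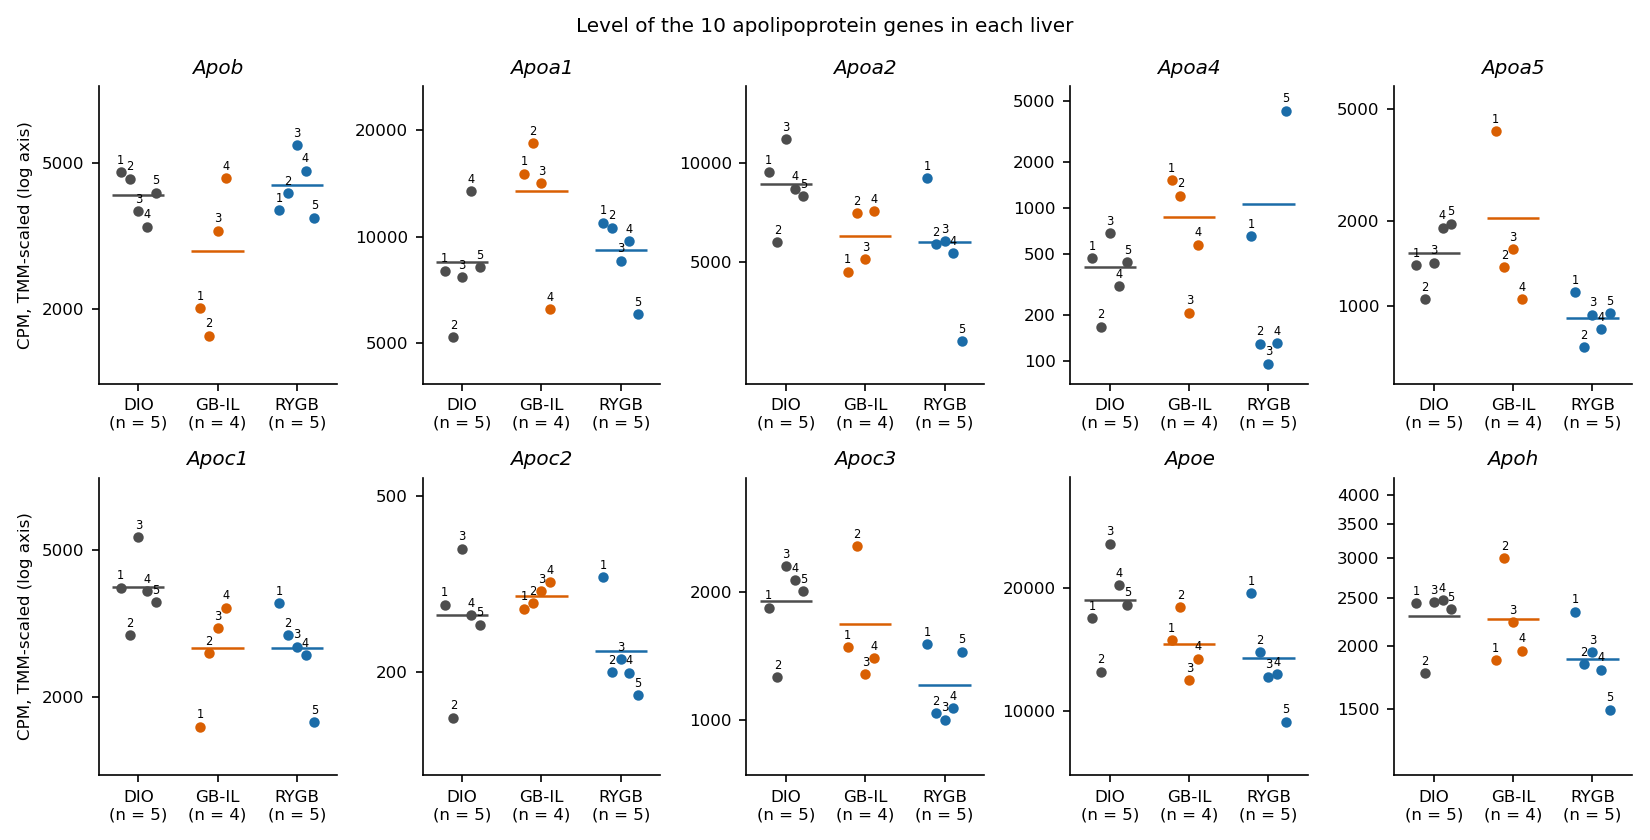
Level of each apolipoprotein gene in CPM (TMM-scaled, log axis) in every liver (numbered points) with the group mean (line), for DIO (n = 5), GB-IL (n = 4) and RYGB (n = 5). GB-IL livers 1 to 3 lie above all other livers for Apoa1 and below them for Apob, 4 of 5 RYGB livers lie below every DIO liver for Apoa5, and RYGB liver 5 stands at 4310 CPM for Apoa4.

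Pairs of members were compared over the livers. Of the 45 pairs, 10 (22.2%) had a positive correlation of log2 CPM over the 14 livers that passed adjustment by Pearson's r, and 7 pairs passed by both r and Spearman's rho. The smallest of these 10 r was 0.67, and of all pairs among the 7738 tested genes with a mean of at least 10 CPM 9.94% had an r at least as high. High correlations are thus common between genes in these libraries, and the count is given as a description. The closest pair was Apoa2 and Apoc1, which lie on different chromosomes, with r = 0.901 (permutation test, p = 2e-05, adjusted p = 0.0009) and rho = 0.877 (permutation p = 0.00017, adjusted p = 0.00765). The r was 0.801 without the 2 livers farthest from the median of Apoa2 and 0.858 with group means removed. Apoa2 and Apoe followed with r = 0.891 (permutation p = 7e-05, adjusted p = 0.00157) and rho = 0.798 (permutation p = 0.00106, adjusted p = 0.0159), and r = 0.781 without the 2 farthest livers. The livers share the scaling of their libraries in all of these pairs.

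Whether neighbours on a chromosome differ from other pairs was not tested. Among the 4 genes on chromosome 9, r lay between 0.037 for Apoa1 with Apoa4 and 0.536 for Apoa4 with Apoc3. None of the 6 pairs passed adjustment by r, whereas Apoa5 with Apoc3 passed by rho (0.688, adjusted p = 0.0476 by permutation test). Among the 3 genes on chromosome 7, r was 0.71 for Apoc1 with Apoe, 0.70 for Apoc2 with Apoe and 0.54 for Apoc1 with Apoc2. Their adjusted p was 0.0226, 0.0246 and 0.112 by permutation tests. By rho they stood at 0.644, 0.538 and 0.521, and none passed (permutation tests, adjusted p = 0.0626, 0.112 and 0.121). Apoc4, an apolipoprotein gene 141 bases from Apoc2, is not among the 10. Its differences from DIO were 0.14 (adjusted p = 0.765) in GB-IL and -0.18 (adjusted p = 0.88) in RYGB.

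Outside the list, the genes with the pattern most like each member were found as the highest Pearson's r of log2 CPM over the 14 livers among tested genes with a mean of at least 10 CPM. For Apob they were Cd164 (0.987) and Lrba (0.986), for Apoa1 Oxa1l (0.935) and Tsr3 (0.925), and for Apoa2 Akr1a1 (0.962) and Aes (0.958). For Apoc1 they were Pebp1 (0.976) and Coasy (0.964), for Apoe Akr7a5 (0.961) and Rab1b (0.956), and for Apoh Slc27a4 (0.956) and Cops6 (0.949). Apoa5 came with Sds (0.921) and Nub1 (0.92), Apoc3 with Gm12033 (0.946) and Eno1 (0.92), and Apoc2 with S100a1 (0.89) and Ubxn8 (0.882). Apoa4 came with Pgk1 (0.866) and Gpi1 (0.848), both enzymes of glycolysis. These were picked as the best of all such genes and are descriptions of likeness over the same 14 libraries.

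Further genes of lipoprotein metabolism were taken from 6 lists with 100 symbols, of which 99 were in the table and 96 were tested. In GB-IL against DIO 3 of the 96 were called, all higher, beside 3.15% of all genes called higher. At an unadjusted p below 0.05 there were 28 of 96 (29.2%, beside 23.1% of all genes), 15 higher and 13 lower. In RYGB against DIO edgeR called 0, with 12 at an unadjusted p below 0.05 (12.5%, beside 8.71%), and in GB-IL against RYGB it called 0, with 19 (19.8%, beside 22.1%). The counts moved with the share of all genes called. Without GB-IL liver 4, 33 of 96 (34.4%, beside 24.6% of all genes) were called in GB-IL against DIO and 21 (21.9%, beside 21.5%) in GB-IL against RYGB. When any single DIO liver, or either GB-IL liver 1 or 2, was left out, 0 of the 96 and 0 of all genes were called in GB-IL against DIO, so these fits say nothing about the pathway genes in particular. DESeq2 called 11 there (11.5%, beside 9.07%). In RYGB against DIO DESeq2 called 1 (Sort1, 1.04%, beside 0.681%) and voom with sample quality weights 16 (16.7%, beside 11.9%). In GB-IL against RYGB they called 6 (6.25%, beside 5.93%) and 1 (1.04%, beside 0.807%).

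The further apolipoproteins were 16 tested genes, and 2 rose in GB-IL: Saa1 and Saa2, the acute-phase apolipoproteins of HDL. Saa2 was measured at 1599, 1319, 14720 and 43.6 CPM in GB-IL livers 1 to 4, against 16.4 to 168 CPM in DIO. Its log2 fold change was 6.12 ± 1.19 (SE, adjusted p = 0.0278), and that of Saa1 was 4.96 ± 1.05 (adjusted p = 0.0297). Both calls were lost with voom and sample quality weights, at 5.41 (adjusted p = 0.0511) for Saa2 and 4.35 (adjusted p = 0.073) for Saa1, where voom called Lpl, Msr1 and Pcsk6 of the 96 and 4.13% of all genes. They were also lost in the fit of the 2 groups (adjusted p = 0.0904 and 0.1), as was every other call there. Without any single DIO liver or GB-IL liver 1 or 2 they were lost as well, with 0 of all genes called. Without GB-IL liver 3 the values were 3.96 (adjusted p = 0.0324) and 3.16 (adjusted p = 0.0465). GB-IL livers 1 to 3 were the high ones for both genes, the same 3 livers that were high in Apoa1. Saa1 and Saa2 are near-identical copies, so their reads may be split between them. The neutrophil genes S100a8 and S100a9 rose with them, by 5.10 (adjusted p = 0.0365) and 5.18 (adjusted p = 0.0343). They were the 2 of 6 genes of the neutrophil and B cell list that passed in GB-IL, where 3.26% of all genes did. In other lists 3 of 7 macrophage and Kupffer cell, 3 of 6 cholangiocyte and 2 of 12 hepatocyte genes passed. In RYGB 0 of 16 further apolipoproteins passed, and the smallest p-value was that of Apol9a at -0.85 (adjusted p = 0.587).

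For assembly and editing of the apoB particle, 17 genes were tested and 0 passed in any comparison. In GB-IL against DIO 5 of 17 had an unadjusted p below 0.05 (29.4%, beside 23.1% of all genes), all 5 lower. Over all genes 6.43% were lower at that p. In the other lists it was met by 5 of 16 further apolipoproteins (31.2%, all higher) and 3 of 11 efflux genes (27.3%, all higher). Of the remodelling genes 6 of 14 met it (42.9%, 4 higher and 2 lower), and of the receptors 1 of 14 (7.14%, higher). Of the transcription factors 8 of 24 did (33.3%, 2 higher and 6 lower). Mttp, the transfer protein that loads lipid onto the Apob product, was measured at 306, 322, 220, 307 and 335 CPM in DIO livers 1 to 5 and at 81.9, 131, 192 and 314 CPM in GB-IL livers 1 to 4. Its order over the GB-IL livers, 4 highest and 1 and 2 lowest, was close to that of Apob, and the log2 fold change was -0.73 ± 0.30 (SE, adjusted p = 0.171). Sar1b, which encodes a GTPase of the vesicles that carry nascent particles, and Dgat2, which encodes an enzyme of triglyceride synthesis, had log2 fold changes of -0.72 ± 0.27 (adjusted p = 0.14) and -0.94 ± 0.30 (adjusted p = 0.0962). In RYGB they were -0.55 ± 0.25 (adjusted p = 0.571) and -0.64 ± 0.28 (adjusted p = 0.547), and for Sar1b all 5 RYGB livers were below the DIO range. Apobec1, which encodes the enzyme that edits the Apob transcript, had the smallest p of the assembly and editing list in RYGB at 0.52 ± 0.22 (adjusted p = 0.547).

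Of 14 tested genes that remodel lipoproteins in plasma, 1 passed in GB-IL. Lpl, which encodes the lipase on which Apoc2, Apoc3 and Apoa5 act, was measured at 168, 178, 55.1 and 38.1 CPM in GB-IL livers 1 to 4 and at 37.4, 40.5, 29.4, 25.9 and 86.1 CPM in RYGB livers 1 to 5, against 8.74 to 24.8 CPM in DIO. All 9 operated livers lay above every DIO liver, with a log2 fold change of 2.72 ± 0.50 (SE, adjusted p = 0.0278) in GB-IL and 1.40 ± 0.46 (adjusted p = 0.457) in RYGB. The call in GB-IL held with voom (2.51, adjusted p = 0.0172) and was lost in the fit of the 2 groups (adjusted p = 0.0844). It was also lost without any single DIO liver (adjusted p = 0.0618 to 0.0942) and without GB-IL liver 1 or 2 (adjusted p = 0.0617 and 0.0581). In each of these fits that lost it, 0 of all genes were called, and the log2 fold change of Lpl was 2.38 to 2.91. Apoc2, Apoc3 and Apoa5 did not pass in either comparison. Pcsk6, which encodes a proprotein convertase, was at 52.5, 27.2, 66.5 and 147 CPM in GB-IL livers 1 to 4 and at 79.0 to 102 CPM in RYGB, against 136 to 163 CPM in DIO, with -1.03 ± 0.34 (adjusted p = 0.101) and -0.73 ± 0.31 (adjusted p = 0.547).

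Among 14 receptors and uptake proteins and 11 genes of HDL formation and lipid efflux, 0 passed in any comparison. In the receptor list the smallest p-values in GB-IL were those of Msr1, a macrophage scavenger receptor, at 0.997 ± 0.27 (SE, adjusted p = 0.0586), and Pdzk1, the adaptor of the HDL receptor, at -0.90 ± 0.45 (adjusted p = 0.245). Macrophage markers moved with Msr1: the summed level of 7 was 597 to 2106 CPM in GB-IL and 376 to 671 CPM in DIO. Sort1, a sorting receptor for the Apob product, led in RYGB at 1.39 ± 0.33 (adjusted p = 0.331), and 4 of the 5 RYGB livers exceeded the DIO range. In the efflux list Npc2, a lysosomal cholesterol-binding protein, was at 0.78 ± 0.24 (adjusted p = 0.088) and Nr1h2, a sterol-sensing nuclear receptor, at 0.69 ± 0.30 (adjusted p = 0.187) in GB-IL, and Abcg1, a cholesterol transporter, at 0.71 ± 0.37 (adjusted p = 0.608) in RYGB.

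Of the 24 transcription factors known for apolipoprotein promoters, all were tested and 0 passed. In GB-IL 7 were higher and 17 lower than in DIO, with a median log2 fold change of -0.19 beside 0.04 over all genes. Hnf4a, which encodes a nuclear receptor that acts on many apolipoprotein promoters, was at 693 ± 132 CPM in DIO (SD, n = 5), 648 ± 79.3 CPM in GB-IL (SD, n = 4) and 650.2 ± 122 CPM in RYGB (SD, n = 5), with differences of -0.10 ± 0.21 (SE, adjusted p = 0.782) and -0.09 ± 0.19 (adjusted p = 0.921). Foxa1, which encodes a forkhead factor of the liver, was at -0.99 ± 0.31 in GB-IL (SE, adjusted p = 0.0927), and Srebf2, which encodes the regulator of cholesterol synthesis, led in RYGB at 0.76 ± 0.30 (adjusted p = 0.515).

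**Figure D5:**
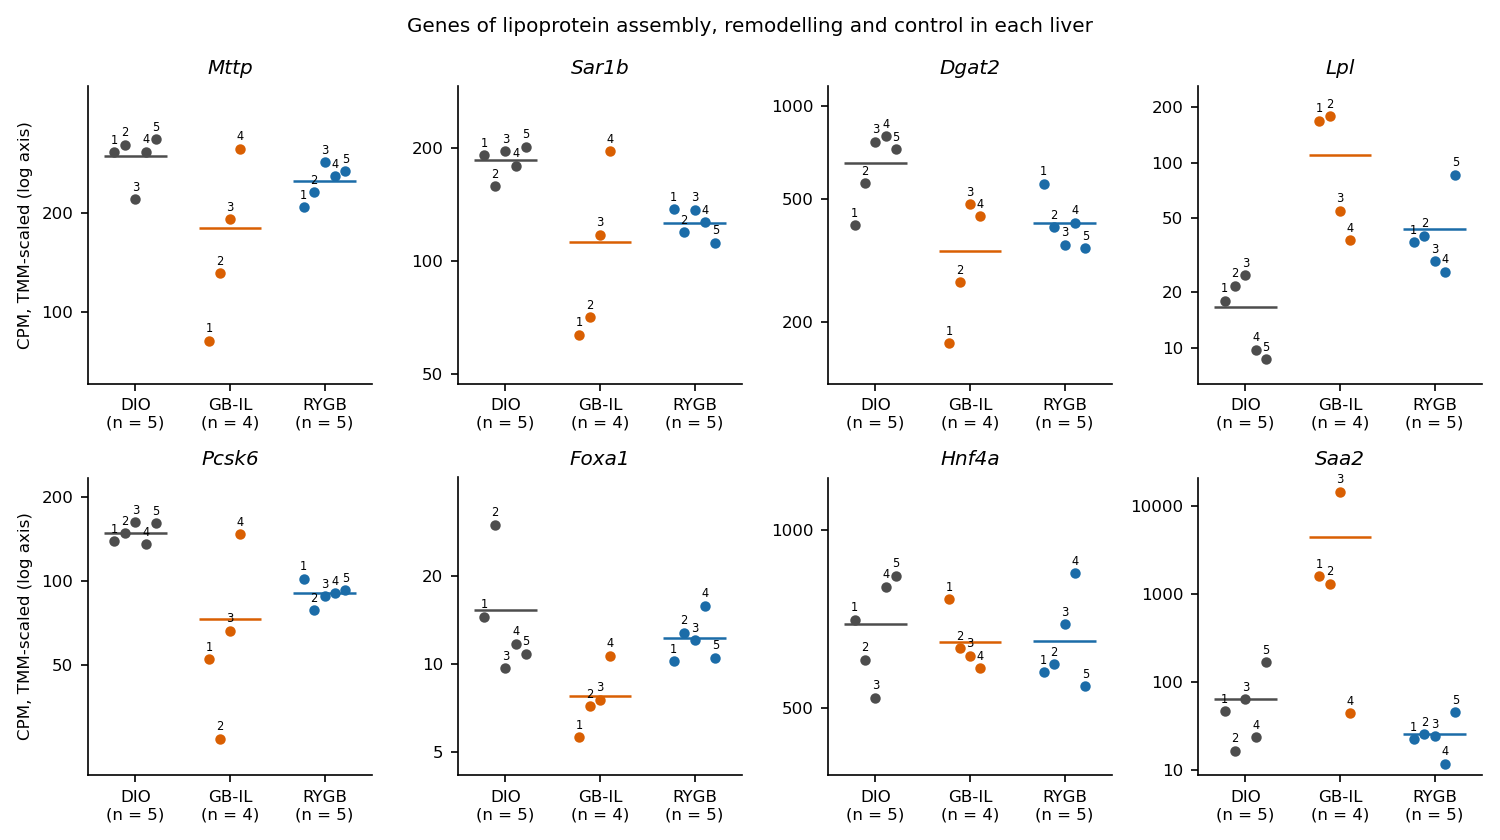
CPM (TMM-scaled, log axis) of 8 genes of lipoprotein assembly, remodelling and control in every liver (numbered points) with the group mean (line). All 9 operated livers lie above the DIO livers for Lpl, GB-IL livers 1 to 3 lie below them for Sar1b, Pcsk6 and Mttp and above them for Saa2, and GB-IL liver 4 lies within the DIO range for Mttp, Sar1b, Pcsk6 and Saa2.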

How the data were processed

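Liver RNA of 14 mice (5 DIO, 4 GB-IL and 5 RYGB, grouped by the sample labels) was measured by RNA-seq, with 1 library per liver. The authors amplified total RNA, prepared Illumina libraries, aligned the reads to mm10 with TopHat 2 and counted them with HTSeq, and the values they deposited are raw counts per gene, without normalization. Amplification and PCR without molecular identifiers mean that counts are not independent molecules. The sources used here do not give tool versions, the gene annotation or the strand setting. Of the 2 library kits in the labels it is not said which liver had which, so no kit term could be fitted. The authors' depth was 18223135 to 28656631 counts per liver. All 14 count columns were used.

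Tests were run with edgeR 4.0.16 in R 4.3.3 (filterByExpr by group, TMM scaling, quasi-likelihood test, robust off, 1 fit of all livers with a mean per group, Benjamini-Hochberg adjustment over 14252 genes, FDR of 0.05). Limma 3.58.1 and DESeq2 1.42.0 served as alternatives. Each test was checked on counts drawn from a model with 200 changed genes. Figures, levels and pairs of members (two-sided permutation tests with 100000 resamples on log2(CPM + 0.5), adjusted over 45 pairs) used Python 3.11.15, numpy 2.4.6, pandas 2.3.3 and matplotlib 3.10.9. CPM of single genes are TMM-scaled, and sums over marker lists are CPM of the total count. Ratios were computed on counts. Lengths and positions are from GENCODE M21, to which 24701 of 25212 identifiers matched. Named beside the 10 members were, in each of 6 pathway lists, the 2 genes with the smallest p in GB-IL against DIO, the first in RYGB against DIO and those past the FDR where at most 5 were, plus Lpl, Mttp, Hnf4a and the 2 genes most like each member. A gene and a motif that these rules name are not reported here. S100a8, S100a9, Apoc4, the genes of the enterocyte list and Gm10680 were named after their values were seen. The members and lists were chosen with earlier results of these data known. Alternatives were other scalings, filters and tests, a fit of the 2 groups compared, the replicate number as a block, each liver left out, another exon length and, added after seeing the data, a lowess correction (span 0.3) for exon length and GC content, which covered 99% of genes tested.

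Replicate numbers did not pair the livers: of 13 pairs with the same number in 2 groups, the correlation of deviations from the group means was above 0.1 in 2 (range -0.425 to 0.405). No 2 libraries were alike within sampling noise.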

Additional observations from a re-analysis of the deposited data

Results flagged for a closer look

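In 51 sets of 4 or 5 livers (the 10 genes, 6 ratios and the summed share, each in 3 groups) the highest or lowest liver was compared with the rest by Dixon's gap over range, which chance passes in about 5% of sets, and 6 were set apart. Apoa4 in RYGB liver 5 was 4310 CPM, with the other 4 RYGB livers at 95.9 to 655 CPM (gap 0.867 of the range). Apoc2 in RYGB liver 1 was 327 CPM against 177 to 213 CPM in the other RYGB livers (0.759). Apoc3 in GB-IL liver 2 was 2571 CPM against 1282 to 1483 CPM (0.844). Apoh in DIO liver 2 was 1767 CPM against 2370 to 2474 CPM (0.852), and DIO liver 2 was the lowest DIO liver for 9 of the 10 members. The log2 ratio of Apoc3 to Apoc2 was 3.03 in RYGB liver 5 against 2.20 to 2.42 (0.741), and that of Apoa2 to Apoa1 was 0.20 in GB-IL liver 4 against -1.69 to -1.39 (0.839).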

How the results depend on the processing

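The log2 fold changes of the 10 genes were recomputed under 24 alternatives in each comparison. In GB-IL against DIO 229 of 240 values kept direction and side of the threshold, in RYGB against DIO 232 of 240 and in GB-IL against RYGB 218 of 240. Where an alternative called 0 of all genes, a member could change only in direction, so these counts do not measure stability of the calls. This held in GB-IL against DIO without any single DIO liver, without GB-IL liver 1 or 2 and in the fit of the 2 groups. It also held in most alternatives of the other comparisons. The number of members called was 0 throughout except as follows. With 1 liver left out it ranged from 0 to 2 in GB-IL against DIO and in GB-IL against RYGB. It was 2 without GB-IL liver 4 in both, beside 24.6% and 21.5% of all genes. Voom with sample quality weights called 2 in RYGB against DIO (beside 11.9%), and DESeq2 called 1 in GB-IL against RYGB (beside 5.93%). The number of pathway genes called, 3 in GB-IL against DIO, was 11 with DESeq2 (beside 9.07% of all genes), 0 in the fit of the 2 groups (0%), 5 with the correction for exon length and GC content (3.71%) and 0 to 33 with 1 liver left out (0% to 24.6%). With voom it was also 3, but Lpl, Msr1 and Pcsk6 in place of Lpl, Saa1 and Saa2. In RYGB against DIO, from 0, it was 1 with DESeq2 (0.681%), 16 with voom (11.9%) and 1 (Pcsk6) in the fit of the 2 groups (0.242%). In GB-IL against RYGB, from 0, it was 6 with DESeq2 (5.93%), 1 with voom (0.807%), 2 without a filter (0.207%) and 0 to 21 with 1 liver left out (0% to 21.5%, 1 without GB-IL liver 3). The causes were not tested.

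With the replicate number as a block, 0 members were called in each comparison and 0 pathway genes in GB-IL against DIO, where 1 gene of all was called, and Apoa4 turned to -0.44 in RYGB against DIO and 1.71 in GB-IL against RYGB. The block changed no other call of the members. Since the numbers do not pair the livers, this is no sign of a weaker effect.

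Directions turned as follows, with ranges over single livers left out. In GB-IL against DIO, Apoa4 became -0.036 and Apoa5 -0.136 with voom and Apoc2 -0.0062 with the length and GC correction. With livers left out Apoa5 ranged from -0.215 to 0.612, Apoc2 from -0.0074 to 0.291 and Apoh from -0.20 to 0.054. In RYGB against DIO, Apoa4 became -1.08 with voom and Apob -0.076 with the length and GC correction. With livers left out Apoa1 ranged from -0.020 to 0.336, Apob from -0.016 to 0.165 and Apoa4 from -0.707 (without RYGB liver 5) to 1.66. In GB-IL against RYGB, Apoa2 became -0.039 and Apoe -0.0084 with total counts alone, and both became -0.125 with the length and GC correction. Apoc1 became 0.0023 with RLE scaling and with DESeq2 and 0.094 with voom, and Apoa4 became 1.05 with voom. With livers left out Apoa2 ranged from -0.117 to 0.286, Apoe from -0.015 to 0.283, Apoc1 from -0.153 to 0.166 and Apoa4 from -0.687 to 1.80. Levels per kilobase in DIO moved by more than 1 SD with the principal transcript for Apoe (13280), Apoc1 (7452), Apoc3 (3627) and Apoh (1932). The summed share of counts stayed within 1 SD with any liver left out. With 4 or 5 livers a group, intervals of at least 0.44 to either side on the log2 scale, before adjustment over genes, limit what could be seen.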
